A study of Drosophila melanogaster with 90 samples.

Results

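Transposable elements are DNA families that copy or move themselves within the genome. The counts of each library cover 147 such families, and the 113 described here are all of them except a list of 34. The list of 34 holds, among others, the telomeric elements HETA, TAHRE and TART, and Gypsy, ZAM, IDEFIX, BLOOD, Copia, Jockey2 and the I element. Membership is defined by the name of the family. Of the 113 families, 39 are gypsy-group LTR retrotransposons, 7 are BEL/Pao LTR retrotransposons, 1 is a copia-group LTR retrotransposon, 28 are non-LTR retrotransposons, 32 are DNA transposons and 6 are Helitrons or other repeats. Together they took 279531 of the 2314021 element counts of the 90 libraries, which is 12.08%.

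LTR retrotransposons are transcribed from a terminal repeat, reverse transcribed in the cytoplasm and inserted by an integrase, much as a retrovirus is. Some gypsy-group elements also carry an envelope-like reading frame, and several of these are known to be expressed in the somatic follicle cells of the ovary. Non-LTR elements are reverse transcribed directly at the site of insertion, and DNA transposons are cut and pasted by a transposase. In the fly ovary, piRNAs bound to Piwi direct heterochromatin onto element copies, in the germline and in the somatic cells around it. The gene sov (small ovary) encodes a nuclear zinc-finger protein with a known part in heterochromatin and in the repression of elements.

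The RNA came from Drosophila melanogaster ovaries and was read as polyA libraries, 90 in all, with 30 genotypes in sets of 3. Each library came from 15 pooled ovaries of females aged 4 to 5 days and kept at 25 °C. The 7 sterile mutant genotypes were NP6070/NP6070 and the 6 pairings of a first allele (Dfsov, sovEA42 or sovML150) with KG00226 or sov2. The 7 fertile mutant genotypes were KG00226/KG00226 and the pairings of KG00226, NP6070 and sov2 with each other, written in either order. Dfsov is a deficiency on a w1118 chromosome, KG00226 a P{SUPor-P} insertion, NP6070 a P{GawB} insertion, and sov2 an allele on a chromosome marked y cv v f. The 10 controls were w1118/w1118 and w1118 paired with 1 copy of Dfsov, KG00226, NP6070, sov2, sovEA42 or sovML150, where KG00226, NP6070 and sov2 were placed in both orders. No mutant genotype carried the plain w1118 chromosome of the controls, so a difference between mutants and controls cannot be told apart from one of stock background. Of the 7 sterile genotypes, 6 carried a first allele that no fertile mutant carried. A difference between sterile and fertile mutants thus cannot be told apart from one of stock background either. In the RNAi groups, a hairpin against sov (TRiP.HMC04875 at attP40) or against mCherry (VALIUM20, at attP2) was driven by da-Gal4, which is expressed throughout the animal, nos-Gal4 in the germline or tj-Gal4 (NP1624) in the somatic cells of the ovary. Females with sov RNAi were sterile and those with mCherry RNAi were fertile. The hairpins were inserted at different sites, so a difference between them cannot be told apart from one of stock background. Several genotypes share an allele, so the genotypes of a class are not fully independent, and the 3 libraries of a genotype measure the spread between pools of ovaries.

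Libraries held 2110 to 13164806 counts on genes (median 4346724.5) and 2 to 17866 counts on the 113 families (median 2076.5). The counts of 3 libraries on genes were under 100000, namely sov2/w1118 library 1, Dfsov/sov2 library 3 and sovML150/KG00226 library 2. A 4th library, KG00226/w1118 library 3, stood apart from the other 2 of its genotype. The 113 families took 0.0714% of its gene and element counts, against 0.0259% and 0.0294% in the other two. The gene sov had 83.9 to 333 CPM in sterile mutants (median 192), 126 to 236 CPM in fertile mutants (median 179) and 100.2 to 199.9 CPM in controls (median 150.4), so its RNA level did not separate the classes. CPM are counts scaled by edgeR to a common library size (TMM). With da-Gal4, sov had 123 to 137 CPM in sov RNAi libraries against 154 to 199.5 CPM in mCherry RNAi libraries. With nos-Gal4 it had 153 to 203 CPM in sov RNAi against 137 to 178 CPM in mCherry RNAi, and with tj-Gal4 214 to 236 CPM in sov RNAi against 154 to 167 CPM in mCherry RNAi. The level of sov RNA thus overlapped between hairpins with nos-Gal4 and was higher in sov RNAi with tj-Gal4.

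In sterile mutants the 113 families took 0.0841% to 0.235% of gene and element counts (median 0.135%, 7 genotypes with their libraries summed). In fertile mutants they took 0.0328% to 0.0600% (median 0.0430%), and in controls 0.0250% to 0.0419% (median 0.0307%). The sterile genotypes all lay above the fertile ones and the controls, while fertile genotypes and controls overlapped. As a part of element counts, the same families made up 6.75% to 23.4% in sterile mutants and 4.04% to 29.4% in fertile mutants, against 32.4% to 79.9% in controls. The RNA of the 34 other families made up the remainder. Among RNAi libraries summed by group, the 113 families took 0.158% with da-Gal4 sov RNAi against 0.0336% with mCherry RNAi. They took 0.0425% with nos-Gal4 sov RNAi against 0.0352% with nos-Gal4 mCherry RNAi, and 0.0593% with tj-Gal4 sov RNAi against 0.0289% with tj-Gal4 mCherry RNAi. In bulk ovaries, fewer cells of a type and less RNA per cell cannot be told apart.

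**Figure D1:**
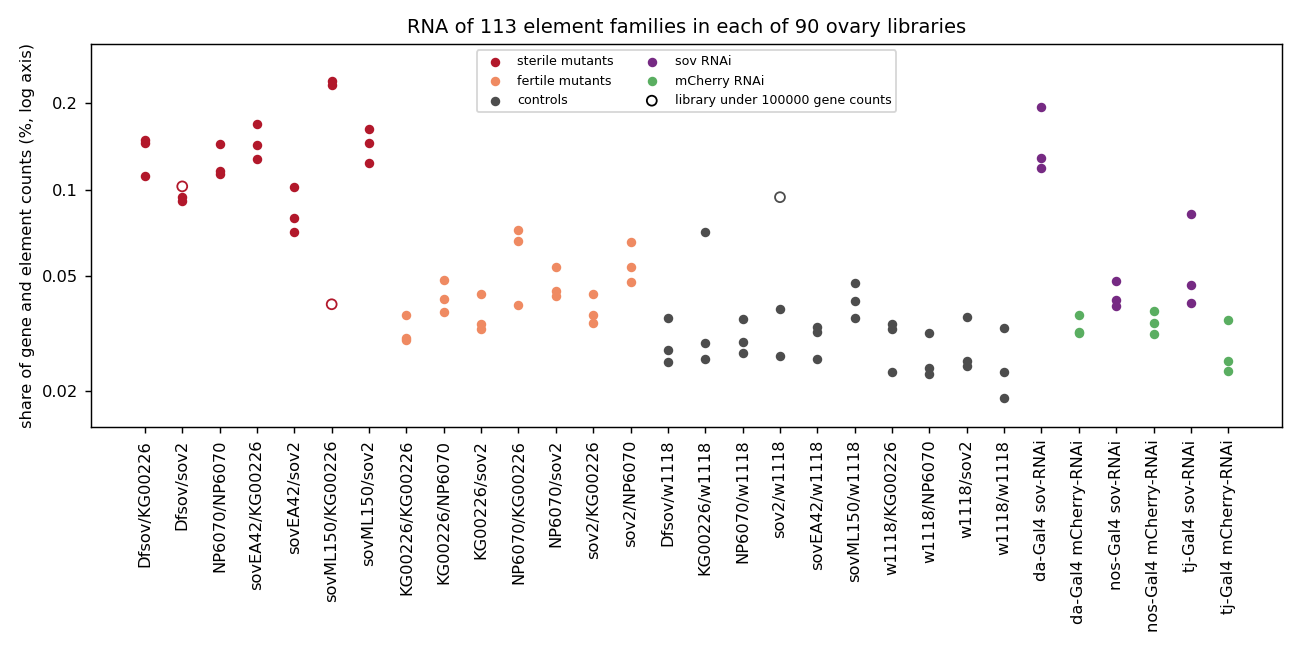
Share of gene and element counts that fell on the 113 element families in each of 90 libraries (vertical log axis, in percent), 3 libraries for each of 30 genotypes along the horizontal axis. Open circles are the 3 libraries under 100000 gene counts. Most libraries of sterile mutants and all 3 of da-Gal4 sov RNAi lie above 0.1%, while 1 sterile library under 100000 gene counts is at 0.0400%, and KG00226/w1118 has 1 library at 0.0714%, above the other two.

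The counts were spread unevenly. Most fell on BEL (36805 counts over the 90 libraries), a BEL/Pao element whose annotated copies are named 3S18, on DOC (34865), a non-LTR element of the jockey clade, and on DNAREP1_DM (33300), the short and very numerous INE-1 repeat. Gypsy8 (11416), ROVER (9239), FB4_DM (8666), MAX (7828) and TABOR (7573) followed. At the other end, Bilbo, PLACW_DM, MuDR-1_DEl and Rehavkus-1_DY had no count in any library, and these 4 are among 10 families with fewer than 10 counts. Of the 113 families, 78 were matched to a family of insertions in the genome annotation. That annotation holds 5874 element insertions in all, those of other families included.

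The first comparison set the 7 sterile mutant genotypes against the 10 controls. Among LTR retrotransposons, 7 of 7 tested BEL/Pao families, 29 of 31 gypsy-group families and the copia-group family DM1731 rose, with median log2 changes of 3.25, 3.39 and 3.16. Non-LTR elements and DNA transposons also rose, 20 of 22 and 17 of 20 of those tested, with median log2 changes of 1.92 and 1.97. Both tested families of Helitrons or other repeats rose, with a median of 1.62. In all, 76 of the 83 families with enough counts to be tested rose and none fell (edgeR quasi-likelihood test, adjusted p under 0.05 over all genes and elements). Of all 8449 genes and elements tested, 24.6% rose. DESeq2 also called no family lower in this comparison or in any of the mutant and RNAi comparisons with a count of 0 below, and at an unadjusted p under 0.05 edgeR gave 0 lower here. The 30 families that did not pass the count filter were not tested, and a family that passed through its high group alone had to differ. The median log2 change was 2.56 over the 83 families, 0.00 over all genes and elements, and 4.22 over the 34 other families, all 34 of which rose. In 60 of the 83 families the lowest sterile genotype lay above the highest control, as it did in 3.56% of all genes and elements tested.

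Stalker2, a gypsy-group element, had 1.35 to 19.6 CPM in sterile mutants (median 12.1) and 0 to 0.589 CPM in controls (median 0.186). ACCORD, also of the gypsy group, had 2.18 to 20.6 CPM in sterile mutants (median 7.51) and 0.0654 to 1.11 CPM in controls (median 0.160). Neither overlapped between the classes, and the log2 changes were 5.65 ± 0.75 (SE, adjusted p = 2.41e-06) for Stalker2 and 5.17 ± 0.53 (adjusted p = 1.21e-07) for ACCORD by edgeR. Gypsy8 had 27.0 to 187.6 CPM in sterile mutants (median 63.2) and 1.64 to 6.97 CPM in controls (median 3.06), a log2 change of 4.58. Among BEL/Pao elements, MAX had 21.5 to 65.0 CPM in sterile mutants (median 48.1) and 0.765 to 8.41 CPM in controls (median 1.58), a log2 change of 4.18 ± 0.40 (edgeR, adjusted p = 4.19e-08). DIVER rose by 4.22 ± 0.76 on the log2 scale. BEL itself spanned the widest range, 15.0 to 815.9 CPM in sterile mutants (median 125.6), against 7.44 to 41.6 CPM in controls. Its lowest sterile value, in sovEA42/sov2, lay inside the range of the controls, and its log2 change was 4.04 ± 0.61 (edgeR, adjusted p = 1.21e-05).

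HELENA_RT, a jockey-like non-LTR element, had 2.42 to 10.6 CPM in sterile mutants (median 4.70) and 0 to 0.978 CPM in controls (median 0.103), a log2 change of 4.91 ± 0.63 (edgeR, adjusted p = 1.5e-06). R2_DM, which inserts into the genes for ribosomal RNA, rose by 3.77 ± 0.54 on the log2 scale. Among DNA transposons TRANSIB1 and TRANSIB3 had the largest changes. They belong to the Transib group, whose transposase is related to the RAG1 recombinase of vertebrates. TRANSIB1 had 0.866 to 26.2 CPM in sterile mutants and 0 to 0.392 CPM in controls, a log2 change of 5.05 ± 0.58. TRANSIB3 had 9.45 to 21.9 CPM in sterile mutants (median 13.3) and 0.458 to 2.48 CPM in controls (median 0.692), a log2 change of 4.05 ± 0.34 (edgeR, adjusted p = 6.2e-09). Neither of the pair overlapped between the classes. The other Transib families tested, Transib5, TRANSIB2 and TRANSIB4, rose by 2.92 ± 0.34, 2.07 ± 0.22 and 1.35 ± 0.42 on the log2 scale. TLD2 rose by 2.69 ± 0.38 on the log2 scale and DNAREP1_DM by 0.55 ± 0.11. DNAREP1_DM had 77.6 to 113.7 CPM in sterile mutants and 43.6 to 84.3 CPM in controls.

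The 7 tested families that were not called were BS, DOC, FB4_DM, Galileo_DM, Gypsy9, PROTOP_B and TIRANT. DOC had 47.1 to 147.1 CPM in sterile mutants (median 90.9) and 48.4 to 125.1 CPM in controls (median 70.4), so the classes overlapped almost fully (log2 difference 0.20 ± 0.21, adjusted p = 0.449 by edgeR). FB4_DM, a foldback element, had 16.6 to 21.4 CPM in sterile mutants and 14.5 to 24.6 CPM in controls (log2 difference -0.02 ± 0.10). TIRANT, a gypsy-group element with an envelope-like frame, was highest in the genotypes with sovEA42, mutant and control. It had 40.9 CPM in sovEA42/KG00226 and 31.1 CPM in sovEA42/sov2, and 28.6 CPM in the control sovEA42/w1118. In the 5 other sterile genotypes it had 2.92 to 15.0 CPM, and its difference between the classes was 1.13 ± 0.55 on the log2 scale (adjusted p = 0.0989 by edgeR).

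**Figure D2:**
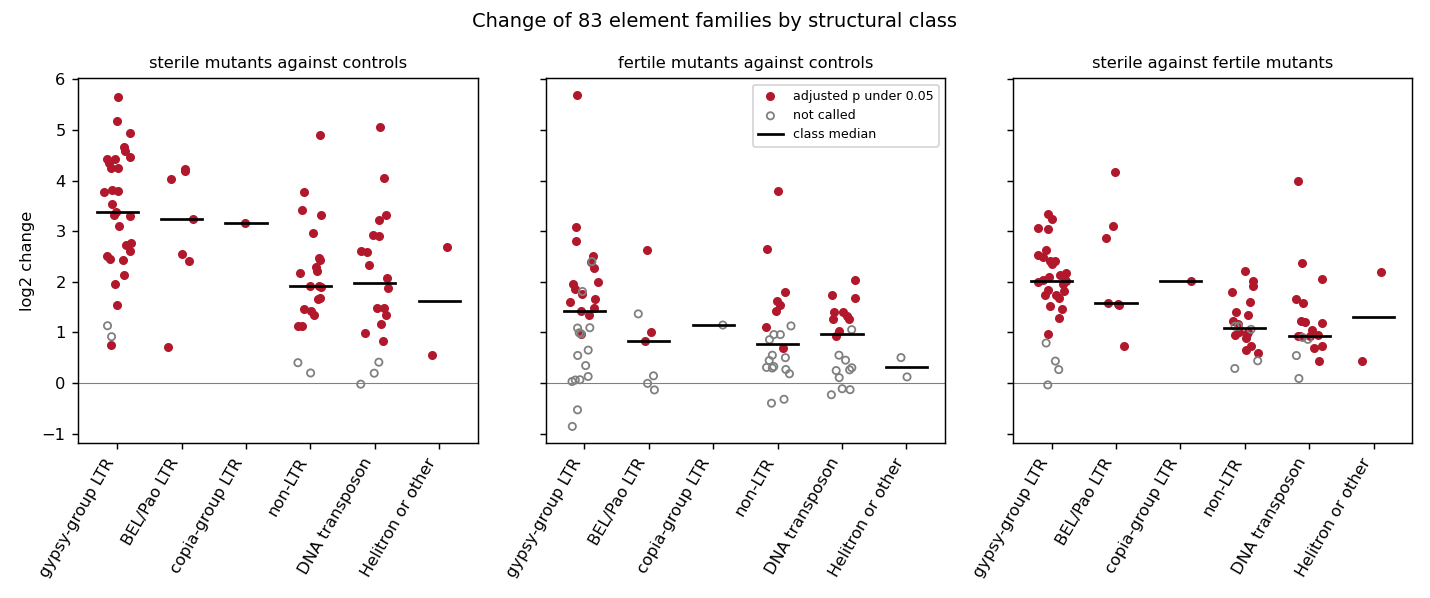
Log2 change of each of 83 tested element families (vertical axis) by structural class (horizontal axis) for sterile mutants against controls, fertile mutants against controls and sterile against fertile mutants. Filled points were called at an adjusted p under 0.05, open points were not, and bars are class medians. Gypsy-group families have a median of 3.39 in the left panel and 1.42 in the middle one.

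The ovaries of sterile mutants also differed in markers of other tissues. The summed level of 5 muscle genes (Mhc, Act88F, up, wupA, Tm2) was 133 to 5765 CPM in sterile mutants (median 2011), 69.7 to 159.9 CPM in fertile mutants and 67.0 to 180.5 CPM in controls. That of 4 hemocyte genes (Hml, Pxn, NimC1, Ppn) was 24.8 to 2698 CPM in sterile mutants, 11.3 to 28.0 CPM in fertile mutants and 9.06 to 43.4 CPM in controls. Fat body genes (Lsp2, Fbp1, Lsp1alpha) summed to 0.520 to 231 CPM in sterile mutants, with 0 to 0.282 CPM in fertile mutants and 0 to 1.12 CPM in controls. Among them Lsp2 had 0.520 to 226 CPM in sterile mutants, where Fbp1 and Lsp1alpha had medians of 0.156 and 0 CPM. In the muscle list, Act88F had medians of 0.175 CPM in sterile mutants, 0.167 CPM in fertile mutants and 0.227 CPM in controls. Genes of the ovarian soma (tj, Fas3, Yp1, Cp36) summed to 922 to 6060 CPM in sterile mutants (median 1967), 5128 to 9189 CPM in fertile mutants (median 6564) and 7391 to 13730 CPM in controls (median 9254). Within that list Fas3 had 75.4 to 530.5 CPM in sterile mutants (median 262), 46.9 to 100.4 CPM in fertile mutants and 38.4 to 122 CPM in controls (median 78.2). Germline genes (vas, aub, osk, bam, piwi) summed to 954 to 1879 CPM in sterile mutants, 1727 to 2095 CPM in fertile mutants and 1694 to 2160 CPM in controls, with bam among them at a median of 76.2 CPM in sterile mutants, 42.7 CPM in fertile mutants and 34.8 CPM in controls. The part of these tissues in the results was not tested. NP6070/NP6070 libraries had 119 to 146 CPM of the muscle genes and 21.3 to 29.6 CPM of the hemocyte genes, both within the range of the controls. Their fat body genes summed to 0.429 to 2.43 CPM, against 0 to 1.12 CPM in the control genotypes, of which 1 sovML150/w1118 library had 3.05 CPM. Their ovarian soma genes summed to 4128 to 5305 CPM, below the control genotypes, and their germline genes summed to 1698 to 1776 CPM. The part of these tissues was not tested. The median log2 difference of NP6070/NP6070 from the mean of the 10 controls was 2.59 over 81 element families.

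Over those 81 families, the ones that passed the count filter in single libraries, each sterile genotype had a median log2 difference from the mean of the controls between 2.27 (in Dfsov/KG00226 and sovEA42/sov2) and 3.01 (in sovML150/KG00226). Single families varied far more than these medians. BEL had 815.9 CPM in sovML150/KG00226, 511.9 CPM in sovML150/sov2 and 486.1 CPM in Dfsov/KG00226, but 15.0 CPM in sovEA42/sov2 and 47.0 CPM in sovEA42/KG00226. TRANSIB1 was highest in sovEA42/KG00226, at 26.2 CPM, and had 0.866 to 4.76 CPM in the other sterile genotypes. ROVER was highest in NP6070/NP6070, at 87.2 CPM, while the other sterile genotypes had 18.02 to 42.7 CPM. The same homozygotes had the lowest sterile level of Stalker2, 1.35 CPM, against 7.64 to 19.6 CPM in the other 6.

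**Figure D3:**
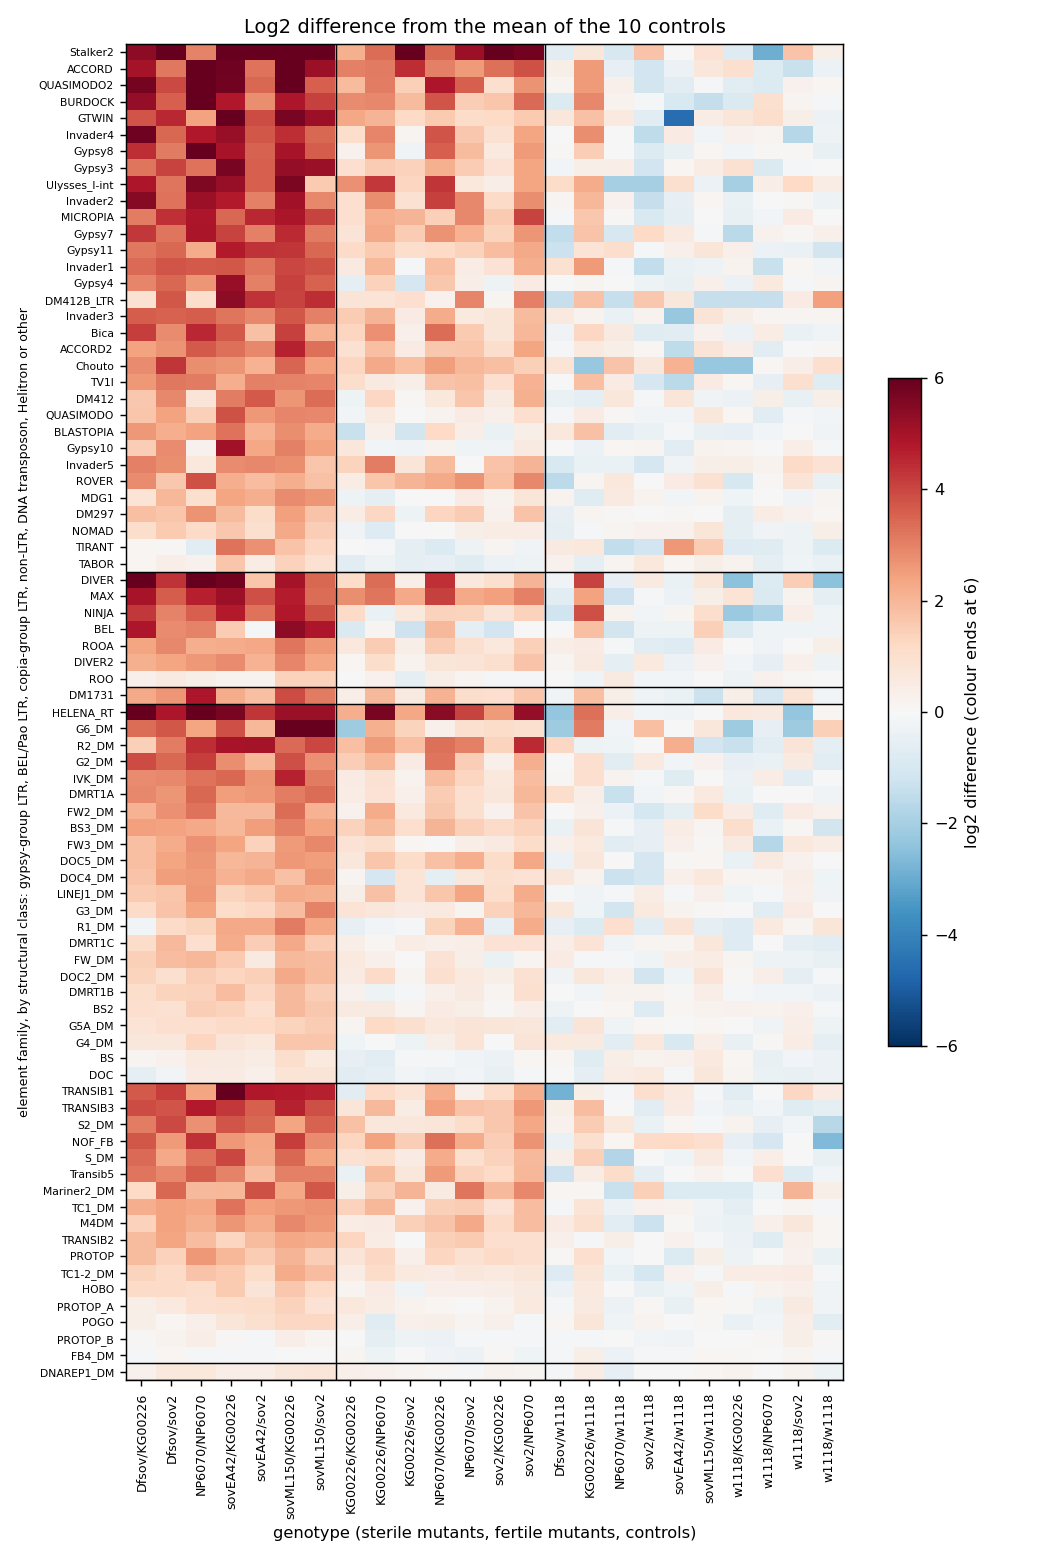
Log2 difference of 81 element families (down the page, ordered by structural class) from the mean of the 10 controls in each of 24 genotypes (across, sterile mutants, then fertile mutants, then controls). Red is higher than the controls and blue lower, and the colour ends at 6. The medians over families run from 2.27 to 3.01 in sterile genotypes, 0.43 to 1.86 in fertile ones and -0.24 to 0.62 in controls, with KG00226/w1118 the highest control.

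The second comparison set the 7 fertile mutant genotypes against the same 10 controls. Of 83 tested families, 37 rose in fertile mutants against the controls and none fell, beside 2.58% of all 8449 genes and elements that rose. At an unadjusted p under 0.05 edgeR gave 2 families lower. They were 16 of 31 gypsy-group, 3 of 7 BEL/Pao, 8 of 22 non-LTR and 10 of 20 DNA transposon families, and none of the copia-group family or the 2 other repeats. The median log2 change was 0.99 over the 83 families, 74 of which were above 0, and 2.41 over the 34 other families, of which 30 rose. In 6 of the 83 families the lowest fertile genotype lay above the highest control, as it did in 0.675% of all genes and elements tested. Sterile and fertile mutants were set against the same controls, so their changes are not independent of each other.

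Stalker2 had the largest change, 5.69 ± 0.75 on the log2 scale (edgeR, adjusted p = 3.53e-05). Its level was 35.6 CPM in KG00226/sov2, 30.4 CPM in sov2/KG00226, 10.2 CPM in sov2/NP6070 and 6.13 CPM in NP6070/sov2. The 3 fertile genotypes with no sov2 allele had 0.787 to 1.89 CPM, and the controls had 0 to 0.589 CPM. The 4 genotypes with sov2 were thus above the other 3 fertile ones, while sov2 paired with w1118 had 0.575 CPM in sov2/w1118 and 0.589 CPM in w1118/sov2. ACCORD had 1.30 to 4.07 CPM in fertile mutants against 0.0654 to 1.11 CPM in controls, a log2 change of 3.08 ± 0.52, and MAX had 9.13 to 27.5 CPM in fertile mutants against 0.765 to 8.41 CPM in controls, a log2 change of 2.62 ± 0.39. HELENA_RT (3.78 ± 0.62), R2_DM (2.65 ± 0.54), NOF_FB (2.03 ± 0.46), a sequence carried inside some foldback elements, Mariner2_DM (1.73 ± 0.49) and ROOA (1.01 ± 0.23) led the other classes by log2 change. BEL had 6.78 to 48.0 CPM in fertile mutants and 7.44 to 41.6 CPM in controls, with a log2 difference of -0.14 ± 0.60 (edgeR, adjusted p = 0.94). Leaving out 1 genotype or replicate number at a time ended the call of Mariner2_DM in 14 of 27 fits (log2 changes of 1.45 to 2.10) and that of ROOA in 2 (0.83 to 1.18 over 27 fits). Neither pool of ERCC alone called Mariner2_DM, and pool 78B alone did not call ROOA. With either ERCC pool alone, the count of families called in fertile mutants was 20 (78A) or 16 (78B), from fewer libraries.

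Set against the fertile mutants directly, 70 of 83 families rose in sterile mutants and none fell, beside 21.4% of all genes and elements that rose. None was lower at an unadjusted p under 0.05 by edgeR, nor with da-Gal4 or tj-Gal4 RNAi below. They were 27 of 31 gypsy-group, 7 of 7 BEL/Pao, 17 of 22 non-LTR and 16 of 20 DNA transposon families, the copia-group family and both other repeats. The median log2 change was 1.52 over the 83 families and 1.68 over the 34 other families, of which 24 rose. In 33 of the 83 the lowest sterile genotype lay above the highest fertile one, as it did in 3.09% of all genes and elements tested. BEL had 15.0 to 815.9 CPM in sterile mutants and 6.78 to 48.0 CPM in fertile mutants, a log2 change of 4.17 ± 0.71 (edgeR, adjusted p = 8.17e-05). Gypsy4 had 12.5 to 68.0 CPM in sterile mutants and 0.954 to 5.87 CPM in fertile mutants, and IVK_DM, a non-LTR element of the I clade, 2.75 to 8.96 CPM in sterile mutants and 0.502 to 1.66 CPM in fertile mutants. Neither overlapped, and the log2 changes were 3.25 ± 0.40 and 2.21 ± 0.30. TRANSIB1 (4.00 ± 0.62), GTWIN (3.33 ± 0.52), NINJA (3.10 ± 0.61), TRANSIB3 (2.37 ± 0.35), TLD2 (2.19 ± 0.40), DM1731 (2.02 ± 0.46) and DMRT1A (2.01 ± 0.31) rose as well, by log2 change. DNAREP1_DM rose by 0.43 ± 0.12.

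The 13 families not called between sterile and fertile mutants were FB4_DM, G5A_DM, Galileo_DM, Gypsy9, HELENA_RT, Invader5, LINEJ1_DM, Mariner2_DM, R1_DM, R2_DM, ROVER, Stalker2 and TRANSIB4. Stalker2 had 1.35 to 19.6 CPM in sterile mutants and 0.787 to 35.6 CPM in fertile mutants (log2 difference -0.04 ± 0.65, adjusted p = 0.972 by edgeR). ROVER had 18.02 to 87.2 CPM in sterile mutants (median 26.6) and 7.78 to 44.8 CPM in fertile mutants (median 25.0). LINEJ1_DM, a jockey-like non-LTR element, had 8.07 to 19.4 CPM in sterile mutants and 4.11 to 16.1 CPM in fertile mutants. All of these overlapped between the classes, which does not show that the classes are alike.

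The class counts moved little when the 4 libraries that stood apart were left out, a setting chosen after the data were seen: 75 families rose in sterile mutants against controls, 40 in fertile mutants against controls and 70 in sterile against fertile mutants. They depended on scaling. With libraries scaled to their ERCC spike-ins in place of TMM, the median log2 change of all genes and elements was -1.33 for sterile mutants against controls, 0.39 for fertile mutants against controls and -1.73 for sterile against fertile mutants. The median of the tested families lay 2.54, 0.97 and 1.40 above these, against 2.56, 1.00 and 1.54 with TMM. On the ERCC scale itself, 48 families rose and 8 fell in sterile mutants against controls, and 8 rose and 18 fell in sterile against fertile mutants, with DNAREP1_DM at -0.87 and -1.34. Per 100 ERCC counts, the 113 families had 97.6 to 699.9 counts in sterile mutants (median 225), 203 to 473 in fertile mutants (median 361) and 123 to 277 in controls (median 203).

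The RNAi libraries set hairpin expression throughout the animal, in the germline and in the ovarian soma side by side. With da-Gal4, 47 of 62 tested families rose in sov RNAi against mCherry RNAi and none fell, beside 10.1% of 7700 genes and elements that rose. By class they were 21 of 24 gypsy-group, 6 of 7 BEL/Pao, 12 of 19 non-LTR and 7 of 10 DNA transposon families and the copia-group family. In 40 of the 62 families the da-Gal4 mCherry RNAi libraries held under 30 counts in all. The same held for 37 families with nos-Gal4 and 38 with tj-Gal4. Here too, a family that passed the count filter through its high group alone had to differ. The families' median log2 change was 2.31 over the 62 families and 4.68 over the 34 other families, of which 33 rose. In 49 of the 62 the 3 sov RNAi libraries lay above the 3 mCherry RNAi libraries, as they did in 16.1% of all genes and elements tested, and in FB4_DM, which was not called, below them (18.6, 17.2 and 19.5 CPM in sov RNAi, against 24.8, 21.2 and 26.8 CPM in mCherry RNAi). Muscle genes summed to 193 to 301 CPM in these sov RNAi libraries against 132 to 178 CPM in mCherry RNAi libraries, and hemocyte genes to 39.5 to 101 CPM in sov RNAi against 22.6 to 37.6 CPM in mCherry RNAi. Germline genes summed to 1587 to 1703 CPM in sov RNAi against 2104 to 2280 CPM in mCherry RNAi. None of these overlapped, and their part in the result was not tested.

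NINJA, a BEL/Pao element, had 203, 104 and 86.5 CPM in da-Gal4 sov RNAi libraries and 0.258, 1.30 and 0 CPM in mCherry RNAi libraries, a log2 change of 8.06 ± 0.47 (edgeR, adjusted p = 2.86e-10). BEL had 381, 247 and 273 CPM in sov RNAi against 12.1, 11.4 and 12.2 CPM in mCherry RNAi, and MAX 72.9, 61.5 and 53.3 CPM in sov RNAi against 2.06, 3.26 and 2.17 CPM in mCherry RNAi. The libraries of both hairpins were well apart, with log2 changes of 4.66 ± 0.30 for BEL and 4.67 ± 0.28 for MAX. DIVER (5.01 ± 0.50) and DM1731 (4.03 ± 0.59), the copia-group family, also rose by log2 change. Some families had no count in the da-Gal4 mCherry RNAi libraries, so their folds are lower bounds against 3 counts over the group. Chimpo, with 7.77, 4.51 and 5.27 CPM in sov RNAi, was at least 22.3-fold higher, Transib5 at least 12.6-fold and Ulysses_I-int at least 10.7-fold. For families with 1 to 3 such counts the ratio is given with a 95% interval that covers counting error only: 97.5 (17.2 to 3882) for G6_DM, 86.2 (23.6 to 716) for HELENA_RT and 47.8 (16.1 to 234) for S_DM, a Tc1-like DNA transposon.

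DOC had 83.1, 64.3 and 80.9 CPM in da-Gal4 sov RNAi libraries against 60.6, 75.2 and 74.0 CPM in mCherry RNAi libraries, and DNAREP1_DM had 96.0, 52.8 and 105 CPM in sov RNAi against 81.7, 77.2 and 101 CPM in mCherry RNAi. Both overlapped between hairpins. They belong to 10 tested families that were called with none of the 3 drivers, the others being BS2, DM412, DOC2_DM, FB4_DM, G5A_DM, PROTOP_A, PROTOP_B and ROO.

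With nos-Gal4, in the germline, 7 of 62 families rose in sov RNAi and none fell, beside 1.53% of all genes and elements that rose. They were TRANSIB3, NINJA, HELENA_RT, QUASIMODO2, BEL, BLASTOPIA and TIRANT. Of these, HELENA_RT was not called by DESeq2 (adjusted p = 0.0796) or with ERCC scaling, and QUASIMODO2 was not with the ERCC pool as a term. Leaving out 1 of the 18 libraries at a time ended the call of HELENA_RT in 5 fits (log2 changes of 2.70 to 5.92 over the 18), of QUASIMODO2 in 4 (2.24 to 7.14) and of BLASTOPIA in 2 (1.44 to 1.83), in each case when a nos-Gal4 library was left out. Germline genes summed to 1789 to 1907 CPM in nos-Gal4 sov RNAi against 2008 to 2198 CPM in mCherry RNAi, with no overlap, and their part in the result was not tested. The median log2 change over the 62 families was 0.82, or 0.71 with families at 0 counts in mCherry RNAi set at their bound, and 20 of the 34 other families rose with a median of 2.60. At an unadjusted p under 0.05, 20 of the 62 were higher and 1 was lower in sov RNAi. TRANSIB3 had 8.44, 9.99 and 7.94 CPM in sov RNAi against 0, 0.564 and 0.511 CPM in mCherry RNAi, a log2 change of 4.39 ± 0.52 (edgeR, adjusted p = 2.9e-05). NINJA had 10.3, 14.8 and 14.8 CPM in sov RNAi against 1.90, 1.13 and 1.36 CPM in mCherry RNAi, a log2 change of 3.15 ± 0.47. BEL had 46.0, 106 and 56.7 CPM in sov RNAi against 17.1, 20.03 and 14.2 CPM in mCherry RNAi, a log2 change of 2.03 ± 0.28. The hairpins did not overlap in any of these 3 families. QUASIMODO2 and BLASTOPIA, both of the gypsy group, rose by 2.70 ± 0.66 and 1.62 ± 0.35 on the log2 scale. HELENA_RT, at 1.61, 1.67 and 1.37 CPM in sov RNAi and 0, 0 and 0.341 CPM in mCherry RNAi, had a ratio of 9.85 (95% counting interval 2.45 to 86.0).

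With tj-Gal4, in the somatic cells, 16 of 62 families rose in sov RNAi and none fell, beside 9.31% of all genes and elements that rose. They were 9 of 24 gypsy-group, 5 of 19 non-LTR, 1 of 7 BEL/Pao and 1 of 10 DNA transposon families. Over the 62 families the median log2 change was 1.04, or 0.97 with families at 0 counts in mCherry RNAi set at their bound, and 24 of the 34 other families rose with a median of 2.29. Muscle genes summed to 988 to 1448 CPM in tj-Gal4 sov RNAi libraries against 90.2 to 117.7 CPM in mCherry RNAi libraries, and hemocyte genes to 423 to 724 CPM in sov RNAi against 18.5 to 25.7 CPM in mCherry RNAi. Genes of the ovarian soma summed to 3085 to 5972 CPM in sov RNAi against 5896 to 9098 CPM in mCherry RNAi, whereas Fas3 among them had 164 to 260.1 CPM in sov RNAi against 77.7 to 108.5 CPM in mCherry RNAi. The part of these tissues in the result was not tested.

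Stalker2 had 4.04, 9.28 and 2.93 CPM in tj-Gal4 sov RNAi libraries against 0, 0 and 0.197 CPM in mCherry RNAi libraries, a ratio of 72.55 (95% counting interval 12.8 to 2887). TIRANT had 30.8, 48.2 and 28.0 CPM in sov RNAi against 4.51, 10.9 and 9.04 CPM in mCherry RNAi, a log2 change of 2.16 ± 0.25 (edgeR, adjusted p = 3.77e-06). ROVER had 20.4, 33.1 and 10.9 CPM in sov RNAi against 2.14, 3.11 and 7.86 CPM in mCherry RNAi, a log2 change of 2.22 ± 0.42. The hairpins did not overlap in these families, and library 2 of sov RNAi was the highest in each. ACCORD (2.83 ± 0.82), QUASIMODO (2.57 ± 0.43), NOMAD (2.66 ± 0.59), Gypsy4, MDG1 (1.56 ± 0.39) and TABOR (1.42 ± 0.40) were the other gypsy-group families that rose, by log2 change. MAX (2.00 ± 0.30), G2_DM (2.47 ± 0.78), BS (1.74 ± 0.40), R1_DM, DMRT1B and HOBO (1.18 ± 0.27), a DNA transposon of the hAT superfamily, rose as well. The call of G2_DM ended in 9 of 18 fits that left out 1 library (log2 changes of 1.76 to 3.86), and with the ERCC pool as a term, ERCC scaling or the replicate block, and that of ACCORD ended in 4 of 18 (2.48 to 3.05). DMRT1A had 36 counts in sov RNAi and 3 in mCherry RNAi, a ratio of 6.60 (95% counting interval 2.08 to 33.5). With ERCC scaling, the median of all genes and elements was -1.36 in this comparison, and the median of the 62 families lay 1.15 above it, against 1.05 with TMM. On that scale itself 7 families rose and 6 fell, and the median of the 62 families (-0.21) and HOBO (-0.07) took the opposite sign.

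**Figure D4:**
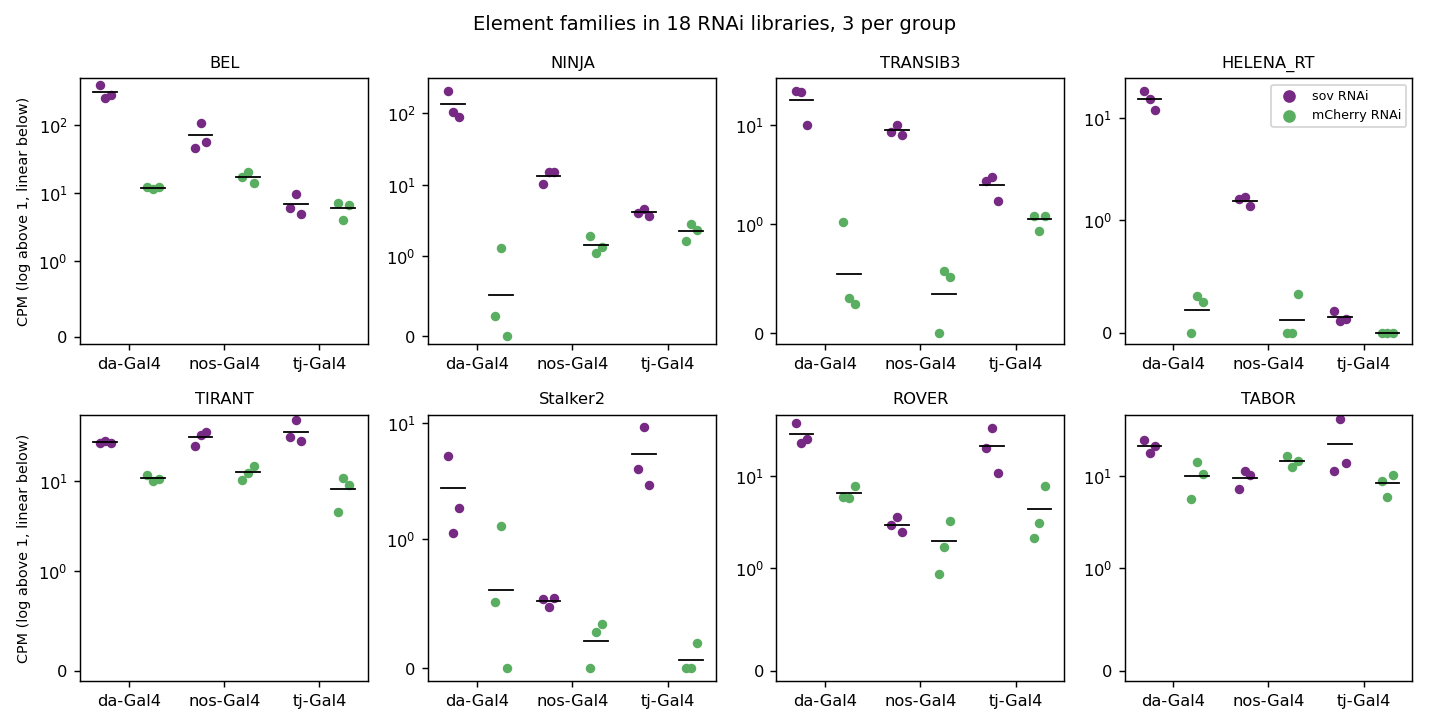
Levels of 8 element families (vertical axis, CPM, log above 1 and linear below) with da-Gal4, nos-Gal4 and tj-Gal4 (horizontal axis), 3 libraries each of sov RNAi (purple) and mCherry RNAi (green) with their mean as a bar. In BEL, NINJA and TRANSIB3 the nos-Gal4 libraries are apart and the tj-Gal4 ones closer together, and Stalker2 and ROVER show the reverse.

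Calls were then set side by side across drivers. Of the 47 that rose with da-Gal4, 7 (14.9%) also rose with nos-Gal4, which is 100% of the 7 with nos-Gal4. Those shared with tj-Gal4 were 11, which is 23.4% of the 47 and 68.75% of the 16 with tj-Gal4. TIRANT alone was called with all 3 drivers, and it was also the single family shared by nos-Gal4 and tj-Gal4. Among all genes and elements that rose, those shared by da-Gal4 and nos-Gal4 were 11.8% of the calls with da-Gal4 and 77.1% of those with nos-Gal4, and those shared by da-Gal4 and tj-Gal4 were 22% and 23.7%. Those shared by nos-Gal4 and tj-Gal4 were 38.1% of the calls with nos-Gal4 and 6.28% of those with tj-Gal4. A family called with 1 driver and not another is not thereby shown to differ between them. These comparisons share no library.

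The difference between the effects with nos-Gal4 and tj-Gal4 was tested itself, where an effect is the log2 change of sov RNAi against mCherry RNAi. The sov effect was higher with nos-Gal4 than with tj-Gal4 in TRANSIB3 (difference 3.27 ± 0.82 on the log2 scale, adjusted p = 0.0225 by edgeR) and BEL (1.84 ± 0.51, adjusted p = 0.0428). It was lower in BS (-2.30 ± 0.57), MDG1 (-2.21 ± 0.57), TABOR (-2.04 ± 0.58) and DOC (-1.95 ± 0.52). That is 2 and 4 of 62 families, beside 0.688% and 4.18% of all genes and elements with a higher and a lower effect, so the lower count is near the background. These calls were sensitive to single libraries. In 18 fits that each left out 1 library, the call ended in 15 for TABOR (differences of -2.32 to -1.19), 10 for BEL (1.40 to 2.23), 9 for DOC (-2.41 to -1.07), 4 each for BS and MDG1, and 3 for TRANSIB3 (2.86 to 3.65). BEL had 5.96, 9.70 and 4.88 CPM in tj-Gal4 sov RNAi against 7.13, 4.04 and 6.68 CPM in mCherry RNAi, where the hairpins overlapped. DOC had 43.0, 47.6 and 46.0 CPM in nos-Gal4 sov RNAi against 94.5, 72.8 and 91.5 CPM in mCherry RNAi. With tj-Gal4 it had 67.0, 215 and 58.6 CPM in sov RNAi against 41.1, 41.0 and 84.9 CPM in mCherry RNAi. Its difference thus drew on values on both sides, neither of which was called by itself. With ERCC scaling the median of all genes and elements moved to 1.27 in this contrast, and the counts became 14 families higher and 2 lower.

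Compared with nos-Gal4, the sov effect was higher with da-Gal4 in 6 of 62 families, beside 0.506% of all genes and elements. They were Invader4 (5.09 ± 1.01), NINJA (4.91 ± 1.01), MAX (3.70 ± 0.53), Gypsy8 (3.28 ± 0.56), BEL (2.62 ± 0.42) and BLASTOPIA (2.50 ± 0.55), as differences of log2 changes. MAX had 3.75, 4.76 and 2.74 CPM in nos-Gal4 sov RNAi against 2.21, 1.98 and 1.71 CPM in mCherry RNAi, a log2 difference of 0.97 ± 0.38 that was not called. Compared with tj-Gal4, the effect was higher with da-Gal4 in 16 of 62 families, beside 3.39% of all genes and elements. NINJA (7.19 ± 0.91), S_DM (4.86 ± 0.99), QUASIMODO2 (4.81 ± 1.27), BEL (4.46 ± 0.54), TRANSIB3 (3.83 ± 0.79) and DOC5_DM (2.39 ± 0.69) were among them. So was Ulysses_I-int, whose fold with da-Gal4 is the lower bound given above. S_DM, QUASIMODO2 and Invader4 had 3 counts each in the da-Gal4 mCherry RNAi libraries, so the size of their differences is loosely set. That of Invader4 against nos-Gal4 ran from 4.49 to 8.68 in fits that left out 1 library. The call ended in 7 of 18 fits that left out 1 library for DOC5_DM, and in 2 for Invader4 and 3 for NINJA against nos-Gal4. Both of these contrasts were added after the data were seen.

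A list of gypsy-group elements with an envelope-like reading frame (GTWIN, TIRANT, DM297, NOMAD, ROVER, QUASIMODO, TABOR, Gypsy10 and a 9th with no counts entry here) was followed across comparisons. Of the 8 with an entry, 7 rose in sterile mutants against controls (median log2 change 2.19), all but TIRANT, and 2 rose in fertile mutants (median 0.21), DM297 and ROVER. Between sterile and fertile mutants 7 of 8 rose, all but ROVER. Of all genes and elements tested, 24.6%, 2.58% and 21.4% rose in these comparisons, in the same order. TIRANT among these was also high in the control sovEA42/w1118, as given above. With RNAi 6 of the 8 were tested. Those that rose were 4 with da-Gal4 (median 1.44), TIRANT alone with nos-Gal4 (median 0.23) and 5 with tj-Gal4 (TIRANT, NOMAD, ROVER, QUASIMODO and TABOR, median 2.19). Of all genes and elements, 10.1%, 1.53% and 9.31% rose with these drivers. Tested directly, the effect was lower with nos-Gal4 than with tj-Gal4 in TABOR alone of the 6, a call that ended in 15 of 18 fits that left out 1 library. Between da-Gal4 and tj-Gal4 none of the 6 was called. TABOR had 11.5, 41.8 and 13.8 CPM in tj-Gal4 sov RNAi against 8.79, 5.91 and 10.4 CPM in mCherry RNAi, so 1 library carried much of its change.

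The sterile genotypes allow a comparison of sov2 with KG00226 as second allele over the same 3 first alleles, 9 libraries each. Of 79 tested families, 17 fell with sov2 and 2 rose, beside 6.04% of all genes and elements that fell and 10.2% that rose. The families that fell were 4 of 7 BEL/Pao and 11 of 31 gypsy-group families with HELENA_RT and S_DM. All 17 were lower with sov2 over each of the 3 first alleles, but they were called from these same libraries, so this is no separate support. Families that were not called, such as DM297, HOBO and PROTOP, were also lower over all 3. Over the 79 families the median log2 change was -0.35. Of the 34 other families 15 fell and 2 rose, with a median of -0.60.

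QUASIMODO2 had 6.77, 4.68 and 5.30 CPM with sov2 over Dfsov, sovEA42 and sovML150, against 21.3, 23.0 and 21.8 CPM with KG00226. MAX had 24.2, 27.7 and 21.5 CPM with sov2 against 62.8, 65.0 and 51.4 CPM with KG00226. Neither overlapped between genotypes (each value sums 3 libraries), and the log2 changes were -2.19 ± 0.33 (edgeR, adjusted p = 0.000452) and -1.32 ± 0.17 (adjusted p = 0.000122). By single library, low-depth ones included, both overlapped. QUASIMODO2 had 0 to 10.3 CPM with sov2 and 0 to 50.5 CPM with KG00226, and MAX 0 to 38.5 CPM with sov2 and 0 to 79.8 CPM with KG00226. In none of the 79 tested families were the single libraries of the alleles apart. DIVER (-2.48 ± 0.41), Ulysses_I-int (-2.24 ± 0.53), Invader2 (-2.03 ± 0.22), S_DM (-1.39 ± 0.29), BEL (-1.29 ± 0.33) and HELENA_RT (-0.96 ± 0.27) fell too, by log2 change. BEL was lower with sov2 over each first allele, at 114, 15.0 and 512 CPM against 486, 47.0 and 816 CPM with KG00226, while it differed far more between first alleles. In the opposite direction, Mariner2_DM had 8.16, 10.7 and 9.99 CPM with sov2 against 2.09, 3.07 and 3.97 CPM with KG00226 (log2 change 1.84 ± 0.35, adjusted p = 0.00264 by edgeR), and DM412 rose by 0.80 ± 0.26 (adjusted p = 0.0408). The call of DM412 ended in 12 of 18 fits that left out 1 library (log2 changes of 0.70 to 0.93), with the ERCC pool as a term (adjusted p = 0.0704 by edgeR) and with ERCC scaling (adjusted p = 0.451), and that of HELENA_RT ended in 4 of 18.

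Muscle genes were higher with sov2 than with KG00226 over Dfsov and sovML150, and overlapped between the alleles over sovEA42. They summed to 3895 to 7635 CPM in Dfsov/sov2 against 477 to 863 CPM in Dfsov/KG00226, to 810 to 3357 CPM in sovEA42/sov2 against 903 to 4733 CPM in sovEA42/KG00226, and to 4098 to 5519 CPM in sovML150/sov2 against 1462 to 2560 CPM in sovML150/KG00226, without the libraries under 100000 gene counts. Their part in the result was not tested.

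Females that carried either allele once, over w1118, allowed a comparison of the alleles in other libraries, 6 for each allele. None of 29 tested families was called by edgeR or by DESeq2, 1 was lower at an unadjusted p under 0.05, and the median log2 difference was 0.01. Of all 7375 genes and elements tested there, 1.46% rose. Of the 17 families above, 4 could be tested in heterozygotes, and none was called: MAX (log2 difference -1.60 ± 0.55), Gypsy8 (-1.04 ± 0.63), BEL (-0.84 ± 0.62) and ROVER (0.73 ± 0.38). The 17 as a set could thus not be checked here. MAX was the 1 tested family with no overlap between the alleles, at 0 to 2.609 CPM with sov2 and 2.625 to 28.84 CPM with KG00226. This comparison contains the KG00226/w1118 library that stood apart and 1 library under 100000 gene counts. Without them Mariner2_DM (2.21 ± 0.49, adjusted p = 0.0186) and ROVER (1.13 ± 0.27, adjusted p = 0.0288) rose with sov2 by edgeR.

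**Figure D5:**
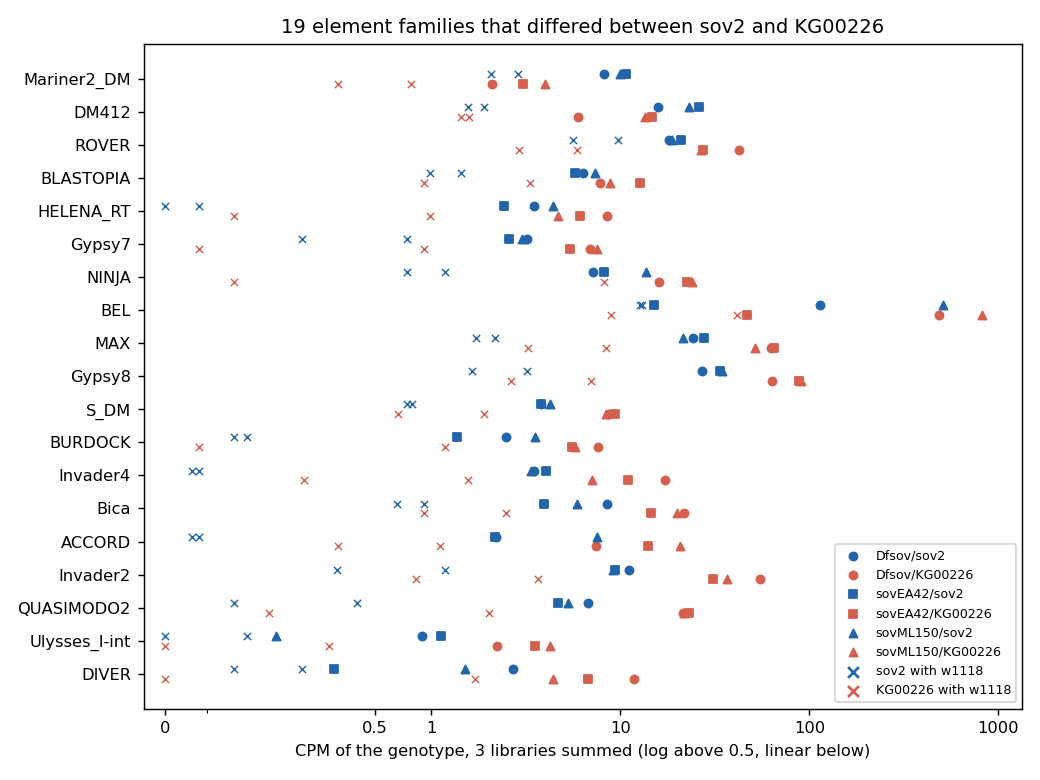
Levels (horizontal axis, CPM of 3 summed libraries, log above 0.5 and linear below) of the 19 element families called between sov2 (blue) and KG00226 (red) in sterile genotypes, 1 family on each line. Filled symbols are sterile genotypes by first allele, and crosses are heterozygotes with w1118. In 17 families each blue symbol lies below the red symbol of the same first allele, and in Mariner2_DM and DM412 above it.

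The size of a family in the annotated genome was set beside its change. DNAREP1_DM has 2235 annotated insertions, ROO 144 and DOC 81, whereas ACCORD and TRANSIB1 have 3 each and R2_DM has 1. Across the 69 tested families with annotated insertions, the log2 change in sterile mutants against controls had a Spearman correlation of -0.41 with the number of insertions, and that in fertile mutants -0.37. With da-Gal4 the correlation was -0.48 and with tj-Gal4 -0.26, each over 51 families. The next measure was the share of insertions in pericentromeric blocks of the large chromosome arms or on any other sequence, the 4th chromosome included. Its correlation was 0.24, 0.23, 0.24 and -0.05 in the same order. These describe families of unequal depth measured in the same libraries, and reads from copies inside other transcripts could not be set apart.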

How the data were processed

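The deposited values are raw read counts, 1 table for each of 90 ovary libraries, over genes, element families and ERCC spike-ins. Per the labels' protocols, stranded polyA libraries started from 200 ng of RNA, to which 10 pg of spike-in pool 78A or 78B had been added. HTSeq 0.7.2, HISAT2 2.0.5 and CASAVA 1.8.2 are named in the submitters' processing notes. Reads were single-end, 50 bp long, and mapped to release 6.21, per the series' design text. How reads that match several copies were counted is not given in the sources used here, so related families may share reads. These deposited counts carry no normalisation. Rows that name no feature held 12.55% to 63.09% of a library and were left out.

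The 34 other families were set aside by name. Members and lists were chosen with earlier results of these data known. Structural classes were assigned by name, 12 of the 113 families being placed after the list was first written. Families were named by rule, up to the 2 called families with the largest change in each class and comparison, called families against the common direction, the 8 with most counts, the 4 largest in each direction for the allele and driver contrasts, and those with no counts. Others (TIRANT, ROVER and LINEJ1_DM values, the envelope-like list and families not called) were named after their values were seen.

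All genes and elements were tested with edgeR 4.0.16 in R 4.3.3 (quasi-likelihood test, TMM scaling, default expression filter), with Benjamini-Hochberg adjustment and calls at an adjusted p under 0.05. For the classes, the 3 libraries of a genotype were summed and 24 genotypes entered a single fit. RNAi comparisons used 18 libraries and 6 groups in a single fit, and the allele comparison 18 libraries with the first allele as an additive term. The scripts were tested on simulated counts. CPM was computed within each fit, so levels are set side by side within a comparison. Levels by genotype in the allele comparison use the scale of the class fit. Alternatives were ERCC scaling, DESeq2 1.42.0, no expression filter beyond 1 count, single ERCC pools, ERCC pool as a term, and libraries left out. Replicate numbers did not pair the samples: over 45 pairs of RNAi libraries with the same number, the median correlation of deviations from the group means was -0.02, and it was above 0.1 in 11. A count of 0 allows up to 3 counts. Intervals and bounds cover counting error only.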

Additional observations from a re-analysis of the deposited data

Results flagged for a closer look

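Of 120 sets of genotype levels (named families within the sterile, fertile and control classes), 10 held a genotype far from the others of its class. About 1 in 20 was taken as the rate by chance for a single set, but the sets share genotypes and are not independent. In 9 of the 10 the genotype was KG00226/w1118, the highest control. It had 1.11 CPM of ACCORD against 0.0654 to 0.414 CPM in the other controls, 1.70 CPM of DIVER against 0 to 0.327 CPM, 6.97 CPM of Gypsy8 against 1.64 to 3.20 CPM, 0.978 CPM of HELENA_RT against 0 to 0.166 CPM and 3.65 CPM of Invader2 against 0.411 to 1.32 CPM. It also had 1.56 CPM of Invader4 against 0.0654 to 0.399 CPM, 8.15 CPM of NINJA against 0.166 to 1.70 CPM, 2.02 CPM of QUASIMODO2 against 0.164 to 0.487 CPM and 2.48 CPM of TRANSIB3 against 0.458 to 1.12 CPM. These levels came from library 3 of the genotype. NINJA had 41.6 CPM there and 0.43 and 1.08 CPM in libraries 1 and 2, and MAX had 27.5 CPM there and 3.22 and 5.14 CPM in the other two, on a scale common to the 90 libraries. The reverse pairing w1118/KG00226 had 0.166 CPM of NINJA.

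NP6070/NP6070 was the low genotype among sterile mutants for Stalker2, with 1.35 CPM against 7.64 to 19.6 CPM in the others. Its 3 libraries had 1.72, 2.43 and 0.51 CPM on the scale common to the 90 libraries.

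Effects differed between groups by a test of the difference itself in 4 contrasts. The sov effect with nos-Gal4 against tj-Gal4 was higher in 2 families and lower in 4 of 62, beside 0.688% and 4.18% of all genes and elements, and the lower count was 0 without tj-Gal4 sov RNAi replicate 2, and the higher count was 0 without nos-Gal4 mCherry RNAi replicate 1, tj-Gal4 mCherry RNAi replicate 1 or tj-Gal4 mCherry RNAi replicate 3. With da-Gal4 it was higher than with nos-Gal4 in 6 families and higher than with tj-Gal4 in 16. Sterile against fertile mutants, which were each set against the same controls, gave 70 families higher.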

How the results depend on the processing

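Of 2231 values of named families under an alternative, 2080 kept their direction and call, 148 lost the call and 3 took the opposite sign. Of 915 counts and medians, 795 stayed within 1.5 times or kept their sign. With ERCC scaling, families raised and lowered were 48 and 8 in sterile mutants against controls, 8 and 18 in sterile against fertile mutants (median -0.33), 7 and 6 with tj-Gal4 (median -0.21), and 14 and 2 for the nos-Gal4 effect minus the tj-Gal4 effect (median 0.71). It also gave 36 raised for da-Gal4 minus tj-Gal4, 1 raised for sov2 against KG00226 in sterile mutants and 3 lowered in heterozygotes, with DNAREP1_DM at -0.87 and -1.34 in the sterile contrasts and HOBO at -0.07 with tj-Gal4. The spike-ins shift all families together. With 1 ERCC pool, fewer libraries gave 20 (78A) or 16 (78B) raised in fertile mutants and 36 (78A) in sterile against fertile mutants. ERCC pool as a term left 1 raised for sov2 against KG00226. Without the expression filter, where more families were tested, counts were 11 raised and 1 lowered with nos-Gal4, 27 raised with tj-Gal4, 9 lowered for nos-Gal4 minus tj-Gal4, 24 raised for da-Gal4 minus nos-Gal4, 4 lowered for da-Gal4 minus tj-Gal4, and 1 raised and 1 lowered in heterozygotes. DESeq2 gave 13 raised for da-Gal4 minus nos-Gal4. Without the 4 libraries that stood apart, 2 were raised in heterozygotes. The causes of these changes were otherwise not tested.

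With each library (or, in the class comparisons, each replicate number) left out in turn, families raised were 66 to 79 in sterile mutants against controls, 23 (without replicate 1) to 41 in fertile mutants, 58 to 73 in sterile against fertile mutants, 40 to 54 with da-Gal4, 4 (without nos-Gal4 mCherry RNAi replicate 1) to 9 with nos-Gal4 and 11 to 22 with tj-Gal4. They were 0 to 3 raised and 0 to 6 lowered for nos-Gal4 minus tj-Gal4, 3 (without nos-Gal4 mCherry RNAi replicate 3) to 10 (without da-Gal4 sov RNAi replicate 3) for da-Gal4 minus nos-Gal4, and 10 (without tj-Gal4 mCherry RNAi replicate 3) to 19 raised with 0 to 1 lowered for da-Gal4 minus tj-Gal4. For sov2 against KG00226 they were 1 to 2 raised and 14 to 19 lowered in sterile mutants, and 0 to 1 raised in heterozygotes, and 0 to 1 were lowered with nos-Gal4. Of 77 calls of named families, 55 held in every fit that left samples out. In the class comparisons these fits also left out 1 genotype at a time. With the replicate number as a block, 48, 7 and 15 families rose with da-Gal4, nos-Gal4 and tj-Gal4, 2 and 3 were higher and lower for nos-Gal4 minus tj-Gal4 (TABOR, at -1.92, lost its call, as did G2_DM, at 2.46, with tj-Gal4), 6 and 17 for the da-Gal4 differences, 2 and 17 for sov2 against KG00226, and 0 in heterozygotes. Depth limits the lowest families: the controls held under 30 counts in all in 5 of the 83. In the RNAi comparisons the limit is wider. The mCherry RNAi libraries held under 30 counts in all in 40 (da-Gal4), 37 (nos-Gal4) and 38 (tj-Gal4) of 62 families.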
